A study of Mus musculus with 4 samples.

Results

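Zinc-finger genes carrying a numbered Zfp symbol were followed from the immature to the mature mouse oocyte. They were the symbols made of Zfp and a number, without Zfp36 and Zfp57, averaging 1 FPKM or more over 4 libraries. FPKM is the fragment count scaled to transcript length and to the mapped fragments of the library, and values of rows with the same symbol were summed. Of 23309 symbols in the files, 331 had such a name, and 179 of these passed the mean. A further 83 were listed at 0 in all 4 libraries, and 69 were above 0 but under the mean of 1 FPKM. Zfp760, at a mean of 1.004 FPKM, was the last gene inside the threshold, and Zfp69, at 0.991 FPKM, the first outside it. The members were thus chosen by their mean level in these same libraries, so their levels are a description. A gene that passed through 1 library alone had to differ between libraries (13 of the 179 reached 1 FPKM in only 1 library). Some genes that reached 1 FPKM in more libraries also passed the mean only through their highest, among them several named below for wide differences.

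The study compared wild-type and Erk-/- oocytes at 2 stages: GV (germinal vesicle, arrested before the first meiotic division) and MII (the egg ready for fertilisation, arrested in its second division). Each of the 4 groups was 1 library, made from 60 pooled cells of ICR females 21 to 23 days old, whose protocol names the hormones PMSG and hCG. The labels do not say which hormone each library's females received, which Erk gene was deleted, or what drove the deletion. The treatment text names Btg4-/- in place of Erk-/- females, and the design text speaks of a single oocyte per group. With 1 library per group there is no replicate error and no test: a difference below compares libraries, and "at least 2-fold" refers to the ratio of (FPKM + 1) values. Where 4 values follow a gene, their order is GV wild type, GV Erk-/-, MII wild type, MII labelled Erk-/-.

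A classical (C2H2) zinc finger is a short loop held by a zinc ion between a pair of cysteines and a pair of histidines, and a row of fingers reads a DNA sequence. Many Zfp proteins also carry a KRAB domain at their start, which recruits TRIM28 and, through it, the methyltransferase SETDB1, heterochromatin proteins and histone deacetylases, and so silences the bound locus. Retroelements and imprinted genes are well-known targets. The genes often sit in tandem groups that arose by duplication. A fully grown oocyte makes almost no new RNA, so during maturation its transcripts are stored, translated or removed. ERK kinases, one of them encoded by Mapk3, are active in that period, and BTG4 brings the CCR4-NOT deadenylase to maternal transcripts.

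The stretches below show what joins these genes and what sets them apart. Each is coding sequence of the gene's principal transcript (GENCODE M21, build GRCm38), 5′ to 3′. For a finger, capitals mark the codons of the paired cysteines and histidines, shown for the 2 members whose levels were highest at GV or among the highest at MII.
Zfp296, codons 140 to 161: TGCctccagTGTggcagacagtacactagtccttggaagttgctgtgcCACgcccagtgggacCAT
Zfp513, codons 152 to 172: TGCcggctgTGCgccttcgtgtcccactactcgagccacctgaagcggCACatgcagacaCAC

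For the KRAB A box, the part of the domain that binds TRIM28, capitals mark the codons of its last acidic residue, valine and methionine. Zfp46 and Zfp568 were higher at MII than at GV, Zfp932 and Zfp108 lower, and Zfp235 and Zfp94 are neighbours of Zfp108 on chromosome 7.
Zfp46: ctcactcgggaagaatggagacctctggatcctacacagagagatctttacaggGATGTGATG
Zfp568: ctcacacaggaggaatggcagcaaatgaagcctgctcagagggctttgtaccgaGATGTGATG
Zfp932: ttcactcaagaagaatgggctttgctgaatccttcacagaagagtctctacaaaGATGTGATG
Zfp108: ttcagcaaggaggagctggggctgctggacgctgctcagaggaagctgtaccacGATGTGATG
Zfp235: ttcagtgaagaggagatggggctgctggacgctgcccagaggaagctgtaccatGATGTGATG
Zfp94: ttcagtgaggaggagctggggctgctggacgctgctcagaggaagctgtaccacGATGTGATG
Over these 63 bases, Zfp108 and Zfp94 matched at 61 positions and Zfp108 and Zfp235 at 57, whereas Zfp108 and Zfp46 matched at 39.

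A pattern for C2H2 fingers matched the translated coding part of 170 of the 178 members that had one, with a median of 10 fingers and a highest number of 33, in Zfp142. The 8 members without a match were Zfp259, Zfp330, Zfp451, Zfp703, Zfp750, Zfp781, Zfp839 and Zfp957. Only 1 transcript model per gene was searched, of 559 residues for Zfp451 and 243 for Zfp781. Fingers in other models of a gene would be missed, so the lack of a match does not show a protein without fingers. A KRAB A box was matched in 79 members and not in 99.

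Mapk3, an Erk gene, was looked at to check the labels. It was at 333 (GV, wild type), 52.3 (GV, Erk-/-), 25.7 (MII, wild type) and 34.3 FPKM (MII, labelled Erk-/-). It was lower in the Erk-/- library at GV but not at MII, so the MII library is called by its label throughout. All 11 oocyte markers were present in every library, with summed levels between 11111 and 21042 FPKM. The 11 granulosa and cumulus cell markers summed to between 12.4 and 22.6 FPKM, with 6 at 0 in all libraries (Amh, Fshr, Inhba, Foxl2, Ptx3 and Tnfaip6). Most of these sums came from Cyp19a1, at 15.5, 0, 21.8 and 10.8 FPKM, and Inha, at 3.80, 11.3, 0 and 0.070 FPKM. Kitl, Has2 and Ptgs2 reached at most 2.75 FPKM. The 5 blood markers summed to between 0 and 6.79 FPKM, with 4 at 0 in all. Of the 6 early-embryo markers, 3 were at 0 in all libraries, and the list summed to 2.06 FPKM at GV in wild type and to 0 elsewhere. The part of these other cells in the results was not tested.

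The Zfp transcripts were a small share of the oocyte's RNA, and that share was smaller at MII. Their summed level was 2614 (GV, wild type), 2671 (GV, Erk-/-), 1778 (MII, wild type) and 1708 FPKM (MII, labelled Erk-/-). These sums were 0.577, 0.635, 0.443 and 0.413% of all summed FPKM. Both GV libraries were thus above both MII libraries. The median Zfp gene was at 6.95, 6.43, 1.41 and 2.71 FPKM in that order, beside 13.2, 12.6, 4.26 and 7.45 FPKM over the 9990 genes tested, those that reached the same mean. FPKM is relative to each library's total, so less RNA per oocyte cannot be read from it.

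Most members were low: 85 had a mean from 1 to 5 FPKM, 70 from 5 to 20, and 24 at least 20 FPKM. Of the GV libraries, wild type had 18 members listed at 0 (10.1%) and Erk-/- had 21 (11.7%), beside 8.87 and 11.02% of all genes. Of the MII libraries, wild type had 46 (25.7%) and the one labelled Erk-/- had 23 (12.8%), beside 18.8 and 7.34% of all genes. The wild-type MII library thus had the largest share listed at 0 over all genes too, not only among members. In all, 75 members (41.9%) were at 0 in at least 1 library, beside 30.3% of all genes tested. A total of 70 members reached 1 FPKM in all 4 libraries.

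The 8 members with the highest mean made up 26.1% (wild type) and 31.8% (Erk-/-) of the Zfp sum at GV, and 50.9% (wild type) and 42.6% (labelled Erk-/-) at MII. In the wild-type egg 8 genes thus carried about as much as the other members together. Zfp513, whose human counterpart is linked to retinal degeneration, was at 59.4 (GV, wild type), 110.2 (GV, Erk-/-), 249 (MII, wild type) and 127 FPKM (MII, labelled Erk-/-). Its wild-type MII level was 4.20 times that at GV, against 1.15 times between the other 2 libraries. Zfp957 was at 54.9, 57.3, 261 and 170.4 FPKM in the same order, higher in both MII libraries. Zfp296, a heterochromatin-associated factor that aids reprogramming to pluripotency, was at 169 and 244 FPKM in the GV libraries and at 28.8 and 26.8 at MII. It was the highest member in both GV libraries, and its MII levels were 5.87-fold lower in wild type and 9.13-fold lower in the pair labelled Erk-/-. The deposited bounds of Zfp296 at GV and of Zfp957 at MII were among those set aside, so these values have no usable bounds.

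Other abundant members differed little between stages. Zfp655 was at 91.0 (GV, wild type), 119.6 (GV, Erk-/-), 126.9 (MII, wild type) and 120.6 FPKM (MII, labelled Erk-/-). Zfp664 was at 59.6, 83.2, 91.5 and 80.6 FPKM in that order. Zfp207, the spindle-assembly protein BuGZ that holds BUB3 at kinetochores, was at 61.8, 49.6, 72.6 and 64.9 FPKM. All 4 values of each of these genes lay within 1 doubling of one another. Zfp212 was at 105, 102, 64.8 and 93.3 FPKM, lowest in wild-type MII. Zfp592, a partner of ZMYND8 in a chromatin-bound complex, was at 80.2, 82.2, 11.2 and 44.9 FPKM, so its MII level in wild type stood apart from the other 3.

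**Figure D1:**
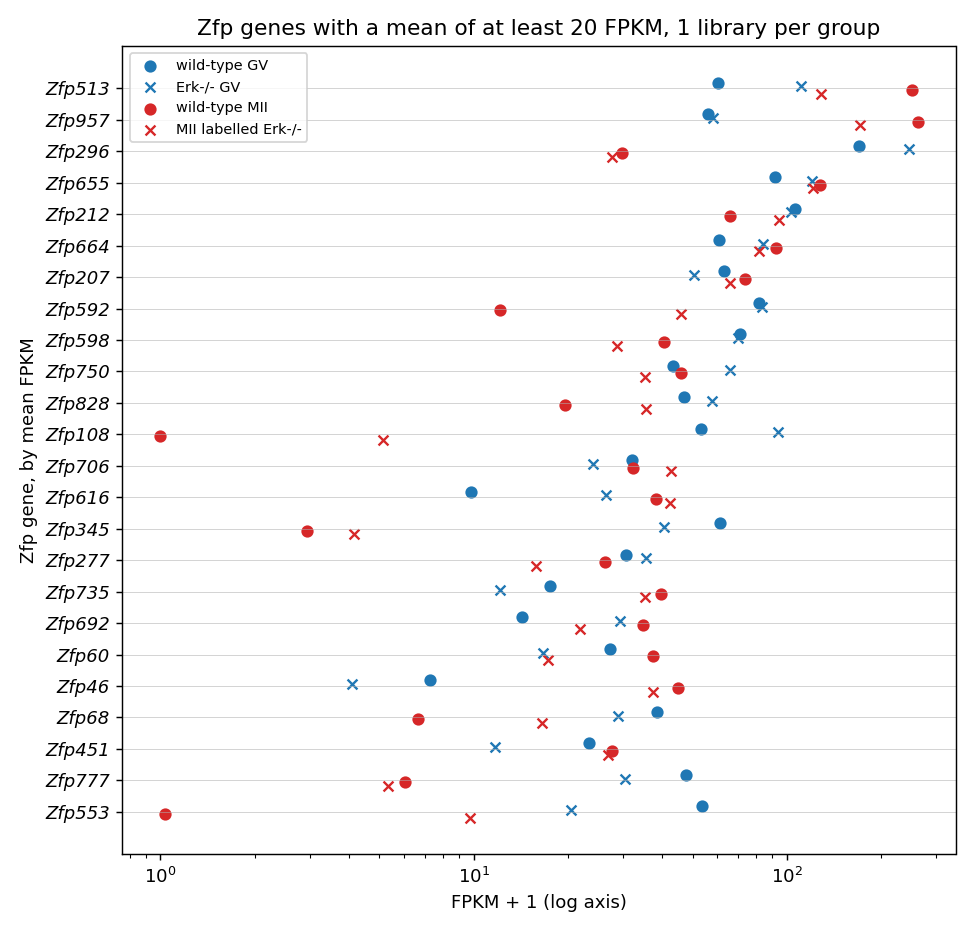
FPKM + 1 on a log axis for the 24 Zfp genes that averaged 20 FPKM or more, in order of their mean, with 1 point per library. Blue marks GV and red MII, dots wild type and crosses the libraries labelled Erk-/-; the points of Zfp655, Zfp664 and Zfp207 lie together, whereas those of Zfp296, Zfp108, Zfp345 and Zfp777 at MII lie far to the left of those at GV, as does the wild-type MII point of Zfp553.

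The first comparison asked how the Zfp transcripts differed between GV and MII in wild type. Of the 179 members, 103 (57.5%) were at least 2-fold lower at MII, beside 49.6% of all genes tested, and 22 (12.3%) were at least 2-fold higher, beside 20.6%. The median log2 ratio was -1.32, beside -0.97 over all genes. The members thus tilted to lower values somewhat more than the average gene, with no test of that difference. Of the 103 lower and 22 higher members, 99 and 21 also had deposited bounds that did not overlap, beside 42.8 and 17.0% of all genes. Genes whose bounds were set aside counted as not apart. Over all genes, 1006 of the 1593 lower genes at 20 FPKM and over had bounds apart, against 1405 of 1426 from 1 to 5 FPKM. Shares with bounds apart are therefore not alike for members and all genes. No support is taken from them in any comparison. After scaling each library by its median ratio to the others, 30.1% of the members that were 2-fold apart were higher, against 17.6% as deposited, and the median of all genes moved by 0.67. In counts, 37 of the 179 members were then higher and 86 lower, beside 29.6 and 40.4% of all genes.

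The tilt depended on level. Among members with a mean from 1 to 5 FPKM, 58.8% were lower at MII, beside 47.5% of all genes in that range. Among those from 5 to 20 FPKM, 64.3% were lower, beside 56.7%. Among the 24 members at 20 FPKM and over, 33.3% were lower, beside 44.5% of such genes, so there the order was the other way round.

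Zfp108, a KRAB gene on chromosome 7 (mm9, chr7:25039813-25047463), was at 52.1 (wild type) and 92.6 FPKM (Erk-/-) at GV. At MII it was listed at 0 in wild type and at 4.14 FPKM in the library labelled Erk-/-, which gave the lowest wild-type ratio of all members (log2 ratio -5.73). Zfp553 (chr7:134376957-134381374) was at 52.7, 19.4, 0.036 and 8.77 FPKM, with a log2 ratio of -5.70 in wild type and -1.06 for the other pair. Zfp707 was at 32.7 and 19.4 FPKM at GV, and at MII it was listed at 0 in wild type and at 0.823 FPKM in the other library. All 3 were therefore abundant at GV and near 0 in the wild-type egg. Zfp428 and Zfp511 were also among the 5 lowest wild-type ratios, but not for the other pair, and are described with the genes that went opposite ways.

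The 5 highest wild-type ratios belonged to members at 6.28 FPKM or less in the wild-type GV library, whereas Zfp513 and Zfp957, given above, were also at least 2-fold higher but were abundant at GV. Zfp423, a many-fingered regulator of fat cell and cerebellar development, was listed at 0 (GV, wild type), 2.68 (GV, Erk-/-), 16.7 (MII, wild type) and 12.6 FPKM (MII, labelled Erk-/-). Zfp449 was at 2.14, 1.31, 22.0 and 9.86 FPKM, a wild-type MII level 10.3 times that at GV. Zfp46 (mm9, chr4:135841984-135849857) was at 6.28, 3.11, 43.8 and 36.4 FPKM, 6.98 times higher at MII in wild type and 11.7 times for the other pair. For these genes both MII libraries lay above both GV libraries. Zfp235 (listed at 0, 3.48, 8.28 and 10.2 FPKM) and Zfp3 (listed at 0, 4.17, 7.42 and 6.82 FPKM) were likewise at 0 in the wild-type GV library. No fold can be given against those zeros.

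Between the libraries labelled Erk-/-, 89 members (49.7%) were at least 2-fold lower at MII, beside 35.6% of all genes, and 34 (18.99%) were at least 2-fold higher, beside 22.9%. The median log2 ratio was -0.94, beside -0.26 over all genes. With deposited bounds apart as well, 87 were lower and 33 higher, beside 31.6 and 20.0% of all genes. By level, 48.2, 58.6 and 29.2% of members were lower from 1 to 5, from 5 to 20 and at 20 FPKM and over, beside 32.7, 42.5 and 31.6% of all genes. The gap to all genes was thus wider here than in wild type in the first 2 ranges. That difference was not tested.

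**Figure D2:**
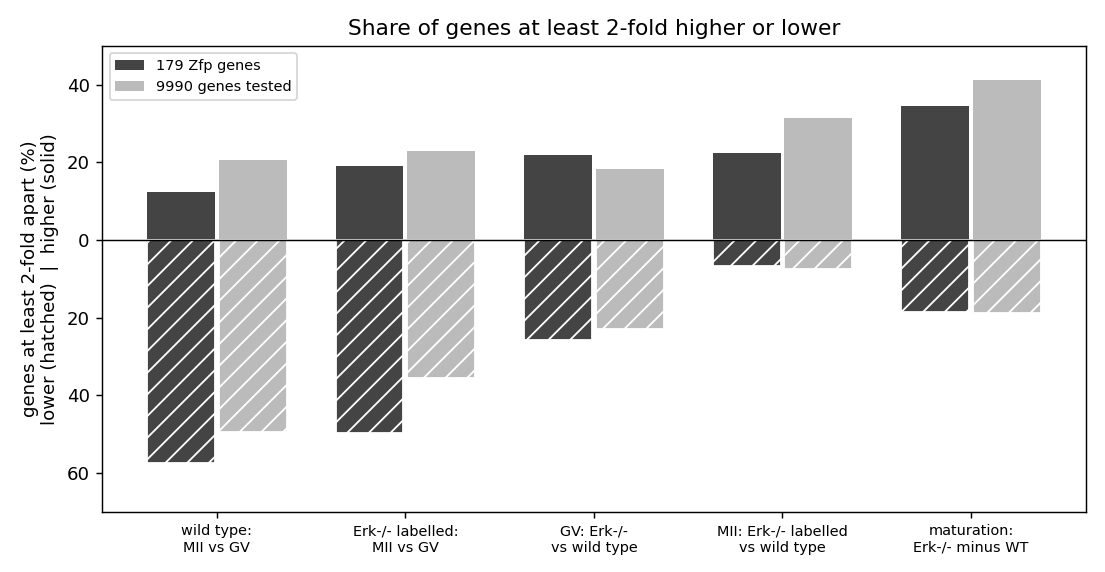
Share of the 179 Zfp genes (dark bars) and of the 9990 genes tested (light bars) that were at least 2-fold higher (solid, upwards) or lower (hatched, downwards), in percent, for the 4 comparisons of libraries and for the difference of the maturation ratios. The dark bar for lower values reaches 57.5% in wild type and 49.7% for the other pair, past the light bars at 49.6 and 35.6%.

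Zfp108 had the lowest ratio here too, 22.3-fold lower at MII (log2 ratio -4.18), among members with a single row that reached 5 FPKM at either stage. Zfp433, summed over 2 rows, was slightly lower, at a log2 ratio of -4.23, with 17.7 FPKM at GV and a listed 0 at MII. However, 94.1% of the short sequence stretches of Zfp433 are shared with transcripts of other genes, so its values are uncertain. Zfp623 was at 15.2 (wild type) and 15.8 FPKM (Erk-/-) at GV, and was listed at 0 in both MII libraries. Zfp593, a ribosome assembly factor with 1 finger, was at 11.8 and 15.2 FPKM at GV, and at 0 and 0.200 at MII. Zfp259, the ZPR1 protein that binds growth factor receptors and has no classical finger, was at 6.75, 12.7, 0.063 and 0 FPKM. Zfp120 was at 6.25, 15.2, 0 and 0.023 FPKM. These 4 genes were above 6 FPKM in both GV libraries and under 1 in both MII libraries.

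Among the higher members, Zfp560 was at 2.37 FPKM (wild type) and listed at 0 (Erk-/-) at GV, and was at 12.3 and 12.4 FPKM at MII. Zfp410, a transcription factor whose main known target is the remodeller gene Chd4, was at 6.46, 0.047, 9.58 and 9.55 FPKM. Zfp944 was at 1.93, 0, 4.83 and 6.70 FPKM. In each the 2 MII libraries were alike and the Erk-/- GV value was the low one, at or near 0.

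Set side by side, 68 members (38.0%) were at least 2-fold lower at MII in both pairs of libraries, beside 26.7% of all genes, and 12 (6.70%) were higher in both, beside 11.4%. The 2 ratios share no library. A further 23 (12.8%) were lower in wild type with the other ratio within 2-fold, beside 18.4% of all genes. Another 17 (9.50%) were lower only between the libraries labelled Erk-/- while within 2-fold in wild type, beside 7.18%. On the plot of both maturation ratios the lower left corner is the fullest.

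**Figure D3:**
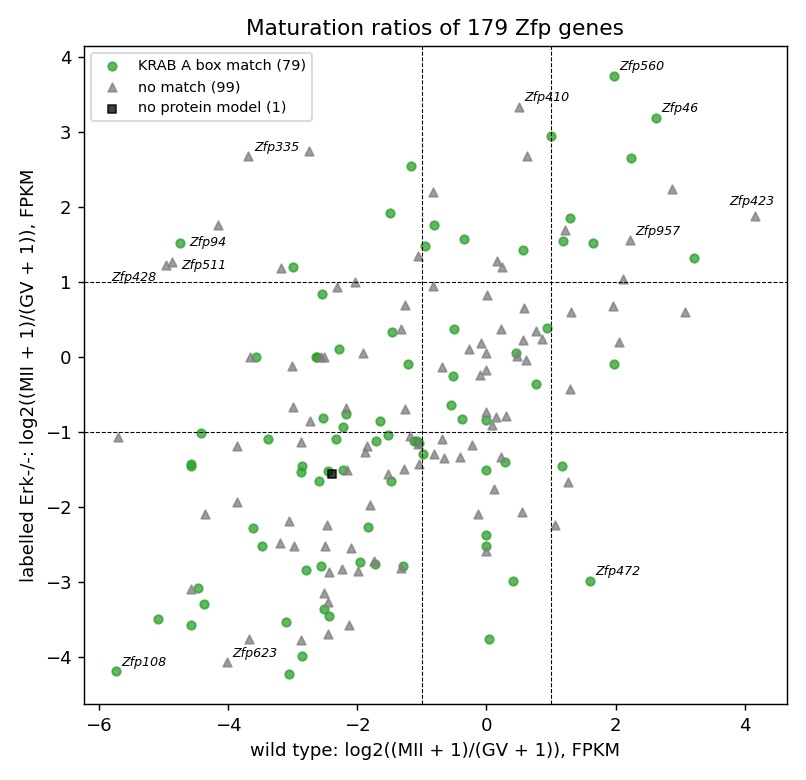
Each point is 1 of the 179 Zfp genes: the x axis gives log2((MII + 1)/(GV + 1)) of FPKM in wild type and the y axis the same for the libraries labelled Erk-/-, with dashed lines at 2-fold. Green dots mark the 79 genes with a KRAB A box match and grey triangles the 99 without; both kinds fill the lower left, where 68 genes lie past both lines, and 16 genes lie past them in opposite directions.

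At GV, 39 members (21.8%) were at least 2-fold higher in the Erk-/- library than in wild type, beside 18.4% of all genes, and 46 (25.7%) were lower, beside 22.9%. The median log2 ratio was 0, beside -0.06. With bounds apart the counts were again 39 and 46, beside 17.0 and 20.6% of all genes, with the limit on bounds given above. Members at low levels made up most of these: 49 of 85 members from 1 to 5 FPKM were 2-fold apart, and 3 of 24 at 20 FPKM and over. The same held over all genes, with 60.4% and 21.2% apart in those ranges. The abundant Zfp transcripts were thus close between the 2 GV libraries.

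The widest GV differences were against values at or near 0. Zfp472 was listed at 0 (wild type) and at 26.3 FPKM (Erk-/-) at GV, with 2.04 and 2.46 FPKM at MII. Zfp775 was at 0, 15.05, 0 and 1.68 FPKM. Zfp617 was at 0, 12.5, 0.032 and 0 FPKM, and Zfp524 at 0.098, 11.9, 0 and 2.03 FPKM. Zfp617 and Zfp524 share 40.8 and 46.0% of their 50-base stretches with transcripts of other genes, so reads may have been split between copies. In all 4 genes, picked by this ratio, Erk-/- GV stood above the other 3 libraries. Zfp775, Zfp617 and Zfp524 passed the mean only through that library, so they had to differ.

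In the other direction, Zfp94 was at 25.8 FPKM (wild type) and listed at 0 (Erk-/-) at GV. Zfp771 was at 11.6 FPKM in the wild-type GV library and listed at 0 in the other 3 libraries. It passed the mean through that library alone, so it had to differ. Zfp652, a partner of the corepressor CBFA2T3, was at 21.1 (GV, wild type), 0 (GV, Erk-/-), 1.45 (MII, wild type) and 1.27 FPKM (MII, labelled Erk-/-). Here wild-type GV was the library that stood alone, in genes picked by this ratio. Zfp94 and Zfp652 also passed the mean only through wild-type GV.

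At MII, 40 members (22.3%) were at least 2-fold higher in the library labelled Erk-/- than in wild type, beside 31.4% of all genes, and 12 (6.70%) were lower, beside 7.43%. The bounds were apart for all of them, beside 28.9 and 6.79% of all genes. The median log2 ratio was 0.19, beside 0.31. Under scaling the median of all genes shifted by -0.31 and that of the members to 0, and the higher share of members apart went from 76.9 to 57.6%. The scaled counts were 34 higher and 25 lower, beside 24.6 and 17.1% of all genes. With a pseudocount of 0.1, 65 members were higher, a setting not computed over all genes. Mapk3 was not lower in this library, so these values compare 2 libraries by label.

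Zfp511 was at 28.2 (GV, wild type), 10.1 (GV, Erk-/-), 0 (MII, wild type) and 25.6 FPKM (MII, labelled Erk-/-). Zfp687, which joins Zfp592 and Zfp532 in the ZMYND8 complex, was at 12.5, 31.1, 0.850 and 13.7 FPKM, 16.1-fold higher at MII in the library labelled Erk-/-. Zfp672 was at 1.15, 3.79, 0.033 and 11.2 FPKM. Each of these was lowest, and under 1 FPKM, in the wild-type egg. The lower side held small ratios. Among members with a single row that reached 5 FPKM in an MII library, Zfp169 was at 9.18, 2.52, 5.98 and 1.27 FPKM and was the lowest, at a log2 ratio of -1.62. Below that limit 3 members were lower, down to -1.89 in Zfp936. Zfp169 was lower in the library labelled Erk-/- at both stages. Zfp330 was at 11.7, 31.8, 17.6 and 6.87 FPKM, Zfp60 at 26.3, 15.7, 36.4 and 16.3, and Zfp740 at 7.13, 0, 11.6 and 5.39 FPKM. Zfp449, given above, was also among the 5 lowest by that limit, with a log2 ratio of -1.08.

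The difference between the 2 maturation ratios was at least 2-fold towards the libraries labelled Erk-/- in 62 members (34.6%), beside 41.2% of all genes, and towards wild type in 33 (18.4%), beside 18.8%. Its median was 0.27, beside 0.59. After scaling, the member median was -0.09 and the higher share 51.9%, against 65.3%, so the direction of this median depends on the scaling. The scaled counts were 55 higher and 51 lower, beside 32.7 and 26.6% of all genes.

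A total of 16 members (8.94%) passed 2-fold in opposite directions in the 2 pairs of libraries, beside 6.27% of all genes. Of these, 12 were lower at MII in wild type and higher for the other pair, and 4 went the other way. All 16 were also 2-fold apart between the GV libraries and 11 between the MII libraries, beside 41.3 and 38.8% of all genes. Genes with opposite ratios must be 2-fold apart at GV or at MII, so these counts follow in part from the choice. Of the 16, 6 were above 0 in every library, and 12 stayed opposite after scaling. Zfp335, part of a histone methyltransferase complex, was at 12.1 (GV, wild type), 0.026 (GV, Erk-/-), 0.020 (MII, wild type) and 5.56 FPKM (MII, labelled Erk-/-). Its difference, 6.36 on the log2 scale, was the widest. Zfp42, the pluripotency factor REX1, was at 16.9, 0, 0 and 2.38 FPKM, and passed the mean only through wild-type GV. Zfp428 was at 30.1, 2.94, 0 and 8.26 FPKM. In these genes wild-type GV was high and wild-type MII at or near 0, with the reverse order in the pair labelled Erk-/-.

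Of the 4 that went the other way, Zfp341 was at 2.62, 20.8, 6.56 and 3.63 FPKM, and Zfp326, a subunit that links RNA polymerase II to splicing, at 0, 9.25, 1.39 and 2.24 FPKM. Zfp667 was at 0.078, 3.93, 1.41 and 0.799 FPKM, and Zfp472 is given above. In all 4, Erk-/- GV held the highest value of the 4 libraries. Zfp326 and Zfp667 passed the mean only through that library, so they had to differ. Zfp617 and Zfp936 (1.797, 6.92, 2.71 and 0 FPKM) had wide differences of the same direction without passing 2-fold in wild type.

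Members with a known role in silencing retroelements or imprinted loci were 4 of a list of 6, since Zfp809 and Zfp819 were under the mean of 1 FPKM. Of these 4, 3 were lower and 1 higher at MII in wild type, beside 49.6 and 20.6% of all genes, and 1 was lower and 2 higher for the other pair, beside 35.6 and 22.9%. Nothing is read from so few genes. Zfp932, which represses endogenous retroviruses, was at 35.5 (GV, wild type), 35.6 (GV, Erk-/-), 1.99 (MII, wild type) and 6.54 FPKM (MII, labelled Erk-/-). It was lower at MII in both pairs, 17.8-fold and 5.45-fold, although it shares 55.5% of its 50-base stretches with other genes. Zfp568, which silences a placental promoter of Igf2, was at 7.08, 5.11, 18.8 and 21.1 FPKM, 2.66 times higher at MII in wild type and 4.13 times for the other pair. Zfp445, a guardian of imprinted methylation, was at 6.14, 2.94, 0.469 and 3.27 FPKM. Its wild-type MII value was the low one. Zfp708 was at 17.9, 3.18, 5.69 and 14.9 FPKM, but 97.4% of its stretches are shared with other genes, so its values are uncertain.

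Members acting on RNA, ribosomes and translation numbered 6 of a list of 7. At MII 2 were higher and 1 lower in wild type, beside 20.6 and 49.6% of all genes, and 1 higher and 3 lower for the other pair, beside 22.9 and 35.6%. Zfp598, the ubiquitin ligase that marks collided ribosomes, was at 70.0, 68.9, 39.6 and 27.7 FPKM. Zfp706, a small protein with 1 finger, was at 31.0, 23.0, 31.3 and 41.8 FPKM. Zfp106, an RNA-binding protein of motor neurons and muscle, was at 6.51, 7.91, 17.6 and 12.5 FPKM. Zfp598 was at least 2-fold lower at MII only for the pair labelled Erk-/- (log2 ratio -1.29, against -0.81 in wild type). Zfp106 was at least 2-fold higher only in wild type (1.31, against 0.60), and Zfp706 was highest in the MII library labelled Erk-/-. Zfp346, a binder of double-stranded RNA, was at 3.18, 1.12, 1.60 and 0 FPKM. Zfp622, a factor for the large ribosomal subunit, was at 3.24, 0.044, 0.034 and 1.10 FPKM, within the low range where many values near 0 occur.

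Transcription and chromatin regulators without a KRAB domain were 11 of a list of 15. In wild type 8 were at least 2-fold lower at MII and none higher, beside 49.6 and 20.6% of all genes. Between the libraries labelled Erk-/- 4 were lower and 4 higher, beside 35.6 and 22.9%. Their median log2 ratios were -2.74 and -0.66, beside -0.97 and -0.26 over all genes. The difference was 2-fold towards the libraries labelled Erk-/- in 8 of the 11 and towards wild type in none, beside 41.2 and 18.8% of all genes, with a median of 1.93, beside 0.59. Zfp217, a subunit of corepressor complexes, was at 13.5, 6.51, 0 and 0.968 FPKM. Zfp281, a pluripotency-linked factor, was at 7.08, 1.14, 0.017 and 0.354 FPKM, and Zfp143, an activator bound at promoters, at 7.76, 8.08, 2.61 and 2.22 FPKM. All 3 were at least 2-fold lower at MII in wild type. For the other pair Zfp217 and Zfp143 were too (log2 ratios -1.93 and -1.50), while Zfp281 was within 2-fold (-0.66). Zfp532 was at 3.32, 0.284, 1.42 and 4.91 FPKM, whereas Zfp148 was at 5.42, 4.70, 4.34 and 5.17 FPKM, alike in all libraries.

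Of 5 genes for the spindle, DNA damage, ubiquitin and SUMO, 4 were members. Zfp830, needed for genome stability and RNA processing in early embryos, was at 39.6 (GV, wild type), 24.2 (GV, Erk-/-), 0.993 (MII, wild type) and 4.94 FPKM (MII, labelled Erk-/-). It was the only one of the 4 that was 2-fold lower at MII, in both pairs, beside 26.7% of all genes. Zfp91, a ubiquitin ligase, was at 20.4, 16.6, 19.1 and 18.9 FPKM, and Zfp451, a SUMO ligase, at 22.3, 10.7, 26.6 and 25.8 FPKM. Both differed little at MII between the labels. Zfp451 was at least 2-fold higher at MII for the pair labelled Erk-/- (log2 ratio 1.19). Of 7 developmental regulators, 4 were members, and none was 2-fold lower at MII in either pair, beside 49.6% of all genes in wild type and 35.6% in the other pair. Beside Zfp423, these were Zfp318 at 12.0, 6.64, 13.6 and 17.6 FPKM, Zfp516, a brown fat regulator, at 1.14, 1.64, 2.22 and 3.16 FPKM, and Zfp703 at 9.65, 11.2, 18.4 and 13.4 FPKM. At MII 1 of the 4 was at least 2-fold higher in wild type and 2 were for the other pair, beside 20.6 and 22.9% of all genes. Nothing is read from lists so short.

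Members with a KRAB A box match had a median mean level of 3.76 FPKM and a median of 12 fingers, those without 6.03 FPKM and 6 fingers. At MII 62.0% of the former and 53.5% of the latter were at least 2-fold lower in wild type, beside 49.6% of all genes, with median log2 ratios of -1.53 and -1.18. Between the libraries labelled Erk-/- the shares were 54.4 and 45.5%, beside 35.6% of all genes, with medians of -1.10 and -0.73. Among members that averaged 5 FPKM or more, the shares in wild type were 65.7% of 35 and 50.0% of 58. KRAB genes were thus lower at MII somewhat more often, also among the more abundant members, as a description with no test. By number of fingers, the share lower in wild type was 45.2% with up to 4 fingers, 65.2% with 5 to 9, 61.8% with 10 to 14 and 54.3% with 15 or more, which is no steady order.

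Chromosomes 7, 8 and 17 held 43, 22 and 19 members. Another symbol of the pattern started within 500 kb of 111 members, and 68 had none so near. In wild type 65.8% of the former and 44.1% of the latter were lower at MII, beside 49.6% of all genes, and between the libraries labelled Erk-/- 55.0 and 41.2%, beside 35.6%. The median mean level was 4.36 FPKM in the former and 7.69 FPKM in the latter. Of the members with a KRAB match 70 of 79 had such a neighbour, against 40 of 99 without, so the KRAB and neighbour classes overlap widely. They were not separated here.

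Some of the genes sat in 10 groups that held at least 4 members, and the others sat in smaller groups or alone. In the group of 6 on chromosome 8 (mm9, chr8:71732945-72298810), all with a KRAB match, 5 were lower at MII in each pair of libraries. In the group of 10 on chromosome 17 (chr17:21145905-22593656), also all with a match, 4 were lower and 2 higher in each. In the 7 on chromosome 6 (chr6:47785660-48573226), none with a match, 5 and 4 were lower and none was higher. Over all members 57.5% were lower in wild type and 49.7% in the other pair, beside 49.6 and 35.6% of all genes, and nothing is read from counts in groups so small.

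The group on chromosome 7 that holds Zfp108 (mm9, chr7:24919182-26012524) was chosen for a closer view after its values were seen. Of its 9 members, 8 were lower and 1 higher at MII in wild type (median log2 ratio -3.10), beside 49.6 and 20.6% of all genes. Between the libraries labelled Erk-/- 4 were lower and 4 higher (median -0.12), beside 35.6 and 22.9%. The MII library labelled Erk-/- was 2-fold higher than wild type in 6 of the 9 and lower in 1, beside 31.4 and 7.43% of all genes. Zfp61 was at 7.55 (GV, wild type), 27.7 (GV, Erk-/-), 0 (MII, wild type) and 1.49 FPKM (MII, labelled Erk-/-). Zfp109 was at 23.1, 4.71, 1.16 and 0 FPKM, and Zfp111 at 6.26, 3.40, 0 and 0.609 FPKM. These 3 were low in both MII libraries. Zfp574, without a KRAB match, was at 22.3, 6.34, 1.89 and 5.75 FPKM, and Zfp526, also without, at 7.42, 0, 0.250 and 5.70 FPKM. Zfp235 alone was higher in both MII libraries.
Zfp111 and Zfp109 have the same 63-base box, which differs from that of Zfp108, shown above, at 1 position and from that of Zfp61 at 12.
Zfp109: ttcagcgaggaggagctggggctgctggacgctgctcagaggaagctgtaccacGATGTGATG
Zfp61: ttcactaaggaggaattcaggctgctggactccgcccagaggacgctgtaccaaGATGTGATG
Zfp108 and Zfp94, whose boxes are near-identical, were at 92.6 and 0 FPKM in Erk-/- GV. Both were lower at MII in wild type, with log2 ratios of -5.73 and -4.74. A link between box and level was not tested.

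**Figure D4:**
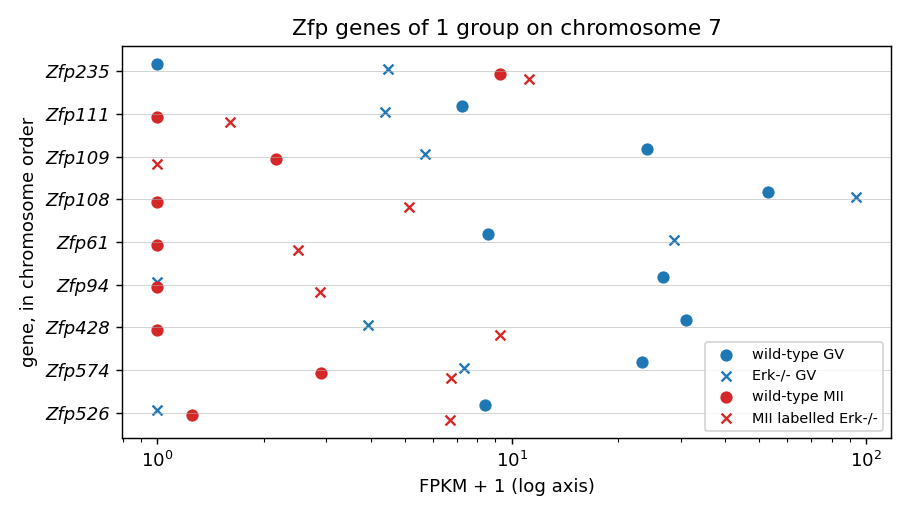
FPKM + 1 on a log axis for the 9 Zfp genes of the chromosome 7 group, in chromosome order, with 1 point per library (blue GV, red MII, dots wild type, crosses labelled Erk-/-). In wild type the red dots lie left of the blue dots in 8 of the 9 genes, and Zfp235 is the exception.

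Short elements near the end of a transcript can mark it for storage and later polyadenylation in oocytes. The cytoplasmic polyadenylation element, written TTTTAT or TTTTAAT and sought on the transcript strand in the last 100 bases of the annotated 3′ end, was present in 29 of 170 members with such a window (17.1%), beside 20.7% of all genes. It was in 35.0% of the 20 members that were higher at MII in wild type, beside 37.1% of all such genes, and in 12.2% of the 98 lower ones, beside 12.1%. Between the libraries labelled Erk-/- it was in 24.2% of the higher members, beside 31.4%, and in 11.9% of the lower, beside 13.3%. The members' shares were thus close to those of all genes in wild type and somewhat lower between the libraries labelled Erk-/-, with no test. Some sites of higher members are shown with the element in capitals, 5′ to 3′ (GENCODE M21).
Zfp957: ataaataaatTTTTATtaaactaataaaat
Zfp449: ttatacacggTTTTAATaaagtggaaatgt
Zfp3: gatgaggcagTTTTATgaactatttattga
Zfp235: ggaaagagctTTTTATtgtaatcactactg

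The partners of KRAB proteins were split between directions. Of 19 genes of the corepressor machinery, 18 passed the mean of 1 FPKM. At MII 7 were higher and 6 lower in wild type, beside 20.6 and 49.6% of all genes, and 5 higher and 4 lower for the other pair, beside 22.9 and 35.6%. Compared at MII, 5 were higher in the library labelled Erk-/- than in wild type and none lower, beside 31.4 and 7.43% of all genes. Trim28, the scaffold that binds the KRAB domain, was at 123 (GV, wild type), 129.9 (GV, Erk-/-), 287 (MII, wild type) and 253 FPKM (MII, labelled Erk-/-). Setdb1 was at 37.1, 39.9, 22.7 and 47.1 FPKM, and Chd4 at 64.6, 52.9, 27.1 and 18.98 FPKM. Chd4 was thus at least 2-fold lower at MII in both pairs. Trim28 was at least 2-fold higher in wild type (log2 ratio 1.21) and just under that for the other pair (0.96), while Setdb1 was lowest in wild-type MII.

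Zinc-finger genes with other symbols gave a comparison. Of 28 Zbtb genes, which pair fingers with a BTB domain, 10 were higher and 9 lower at MII in wild type, beside 20.6 and 49.6% of all genes, and 5 and 7 for the other pair, beside 22.9 and 35.6%. Of 8 Zscan genes, which carry a SCAN domain, none was higher and 5 were lower in wild type, and 1 was higher and 1 lower in the other pair. Of 7 Zkscan genes, with both a KRAB and a SCAN domain, none was higher and 5 were lower in wild type, and 1 was higher and 4 lower in the other pair. Zkscan6 was at 50.6, 41.8, 1.08 and 10.7 FPKM and Zkscan14 at 45.4, 28.7, 1.02 and 0.997 FPKM. Both were at least 2-fold lower at MII in each pair, as were 38.0% of the Zfp genes. Differences between these families were not tested.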

How the data were processed

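The authors deposited FPKM with a lower and an upper bound per gene, per the file headers, for 4 libraries of messenger RNA sequenced in pairs. CASAVA 1.8, TopHat and build mm9 are named in the submitters' processing notes. Not given in the sources used here are the program behind the FPKM values, its annotation, the level of the bounds, strand, and the treatment of reads with several matches. Read counts were not used here, so depth is unknown. Groups came from the sample titles. The check of the labels rests on Mapk3; another gene that bears on it is not reported here.

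From these values FPKM was summed per symbol, and ratios were log2((FPKM + 1)/(FPKM + 1)) with a pseudocount of 1 (Python 3.11.15, pandas 2.3.3, numpy 2.4.6), which understates ratios of low genes. A gene was called higher or lower at 2-fold or more. The script was tested on simulated data. Of the deposited bounds, those with the FPKM outside them or of symbols with more than 1 row were set aside, for 2 or 3 members per library. Genes without usable bounds were counted as not apart.

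Members and lists were chosen with earlier results of these data known. Named are the 8 highest members, the 5 highest and 5 lowest ratios per comparison (1 row per file, at least 5 FPKM), members of the role lists and members with opposite ratios; others named were chosen after their values were seen. So were the rule on bounds, the ranges of level, the 3′ windows, the groups of neighbours and the shares of 50-base stretches.

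Proteins were translated from GENCODE M21 (GRCm38) coding sequences, matched by symbol for 175 members and by older symbol for 3, in place of the RefSeq proteins first planned. The finger pattern was C, 2 to 4 residues, C, 12 residues, H, 3 to 5 residues, H. The first KRAB pattern matched 0 members, through an error in its spacing. A corrected motif (F, 2 residues, EEW) matched 55, a second (LY, 1 residue, D or E, VM) 65 and both 41; either, 79 members, was adopted after seeing which members matched, and atypical boxes are missed. Alternatives were another pseudocount (0.1), median-ratio scaling, no filter, a mean of at least 5 FPKM, and leaving out members with a 0 or with shared sequence.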

Additional observations from a re-analysis of the deposited data

Results flagged for a closer look

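In 16 Zfp genes the ratio of MII to GV went past 2-fold in opposite directions in wild type and in the pair of libraries labelled Erk-/-. Each group is 1 library, so the difference was not tested. Values are log2 differences: the wild-type ratio was subtracted from the ratio of the libraries labelled Erk-/-. It was positive (lower at MII in wild type, higher in the other pair) in Zfp335 at 6.36, Zfp94 at 6.27, Zfp428 at 6.19, Zfp511 at 6.14, Zfp42 at 5.92 and Zfp526 at 5.50. The same order was seen in Zfp652 at 4.35, Zfp931 at 4.19, Zfp868 at 3.71, Zfp708 at 3.42, Zfp622 at 3.04 and Zfp672 at 2.41. It was negative in Zfp472 at -4.58, Zfp341 at -3.30, Zfp326 at -2.92 and Zfp667 at -2.62. In 10 of the 16 at least 1 library was listed at 0, and Zfp708 and Zfp931 share 97.4 and 49.4% of their 50-base stretches with other genes.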

How the results depend on the processing

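No paired analysis was possible because each group is 1 library. Of 90 values under 6 alternatives, 62 stayed within 1.5 times the count or within the spread of the median, and 28 moved. That spread was an interval over the members' ratios, so it does not measure variation between libraries. A median was called where the interval excluded 0, and 0 of the called medians reversed direction. The median of the maturation difference, which changed sign with scaling, was not called. Causes of the moves were not tested in any setting. Depth is unknown, so values near 0 carry the least weight.
With a mean of at least 5 FPKM (94 members), lower and higher counts were 53 lower in wild-type maturation, 48 lower and 19 higher between the libraries labelled Erk-/-, 21 lower and 15 higher at GV, 6 lower and 21 higher at MII, and 14 lower and 34 higher for the difference. Without members listed at 0 (104 left), they were 55 lower and 14 higher in wild type, 47 and 17 between the libraries labelled Erk-/-, 18 and 14 at GV, 6 and 20 at MII, and 12 and 31 for the difference. Fewer genes entered both.
With scaling, 37 members were higher in wild type (median -0.75), 25 were lower at MII (median 0.00) and 51 were lower for the difference, whose median changed sign to -0.09. The scaled shares of all genes were 29.6, 17.1 and 26.6% in that order. With a pseudocount of 0.1, 65 were higher at MII, and the median between the libraries labelled Erk-/- was -1.25. With no filter (248 genes) the medians were -0.70 in wild type and -0.34 between the libraries labelled Erk-/-. Leaving out members with shared sequence, chosen after seeing the data, moved none of the counts by over 1.5 times.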
